A study of Sus scrofa with 36 samples.

Results

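Smooth muscle actin gamma 2 (ACTG2) and 9 further genes of vascular mural cells were described in the cerebellum of 36 piglets, which were fed 1 of 2 fat sources. The genes were chosen by a rule that started from the data: of all genes tested, ACTG2 had the smallest p-value for diet over the 36 libraries, and 9 markers of smooth muscle cells and pericytes were added to see whether they followed it. The 10 genes, of 31907 gene identifiers in the count tables, were ACTG2, ACTA2, MYH11, TAGLN, CNN1, MYL9 and DES (smooth muscle) and RGS5, PDGFRB and NOTCH3 (pericytes). All 10 passed the filter on low counts. The diet values of ACTG2 chose it and are therefore given as a description, without a test.

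Piglets were term-born and of both sexes, and the birth weight groups were normal birth weight (NBW) and spontaneous intrauterine growth restriction (IUGR). From 3 days of age they received for 3 weeks a formula whose fat came from plant oils (VEG) or from bovine cream (MILK). Crossing diet with birth weight made 4 groups of 9 piglets (MILK-IUGR, MILK-NBW, VEG-IUGR and VEG-NBW), and every group was raised on formula, so no sow-fed animals enter the comparisons. Each piglet gave 1 library of cerebellar RNA and is the replicate.

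Mural cells wrap the endothelial tube of blood vessels. Smooth muscle cells ring arteries and arterioles and contract with a set of muscle-type actin, myosin and calponin proteins, whereas pericytes sit along capillaries, are recruited by platelet-derived growth factor and help to maintain the blood-brain barrier. In the brain, both kinds of cell take part in setting local blood flow.

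The libraries of piglets 202 (VEG-NBW), 210 (VEG-IUGR) and 213 (MILK-NBW) stood apart in their groups in the share of reads without a gene, at 43.6%, 64.3% and 31.5%, against 26.7% to 30.5% in the other 33. Piglet 210 had 0 counts for 8 of the 10 genes, but 549 for MYL9 and 126 for DES. Piglet 202 had 5 counts for ACTG2 and 31 for ACTA2. The results below rest on 33 libraries (8, 8, 8 and 9 piglets per group; 16 VEG and 17 MILK; 16 females and 17 males) with 15516541 to 23027502 read pairs on genes, and the values with all 36 are given beside them. All 10 cerebellar markers were detected, with a summed level of 10022 to 33603 CPM (counts scaled to a common library size) in the 33 libraries. In this bulk tissue, fewer cells of a type and less RNA per cell cannot be told apart.

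No gene passed a Benjamini-Hochberg adjusted p-value of 0.05 for diet (0 of 15356 tested, 0%), for birth weight (0%) or for their interaction (0%), by edgeR's quasi-likelihood test. At an unadjusted p-value under 0.05, 299 genes (1.95%) were higher in MILK. None of the 10 mural cell genes passed the adjusted threshold in any of the 41 settings tried. Their lowest adjusted p-value over these settings was 0.216. It came from diet, the contrast on which ACTG2 was chosen, and is given as a description.

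ACTG2 encodes the gamma actin of visceral smooth muscle and lies on chromosome 3 (69097366 to 69121542, Sscrofa11.1, RefSeq). It was the scarcest of the 10 in read pairs, with 1 to 84 counts per piglet (median 20). In VEG-NBW the lowest, median and highest levels were 0.060, 0.707 and 2.47 CPM. In VEG-IUGR they were 0.220, 0.600 and 1.28 CPM. In MILK-NBW they were 0.867, 1.60 and 4.80 CPM, and in MILK-IUGR 0.241, 1.45 and 3.71 CPM. The ranges overlapped, yet 16 of the 17 MILK piglets lay above the VEG median and 81.6% of all pairs of a MILK and a VEG piglet had the higher value in the MILK animal. Mean levels were 0.823 ± 0.660 CPM in VEG (SD, n = 16) and 1.77 ± 1.08 CPM in MILK (SD, n = 17). The fitted log2 difference, MILK minus VEG, was 1.15 (SE 0.31), a 2.22-fold higher level, and with all 36 libraries it was 1.24 (SE 0.33). ACTG2 ranked 1 by p-value for diet over 36 libraries and 2 over 33.

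**Figure D1:**
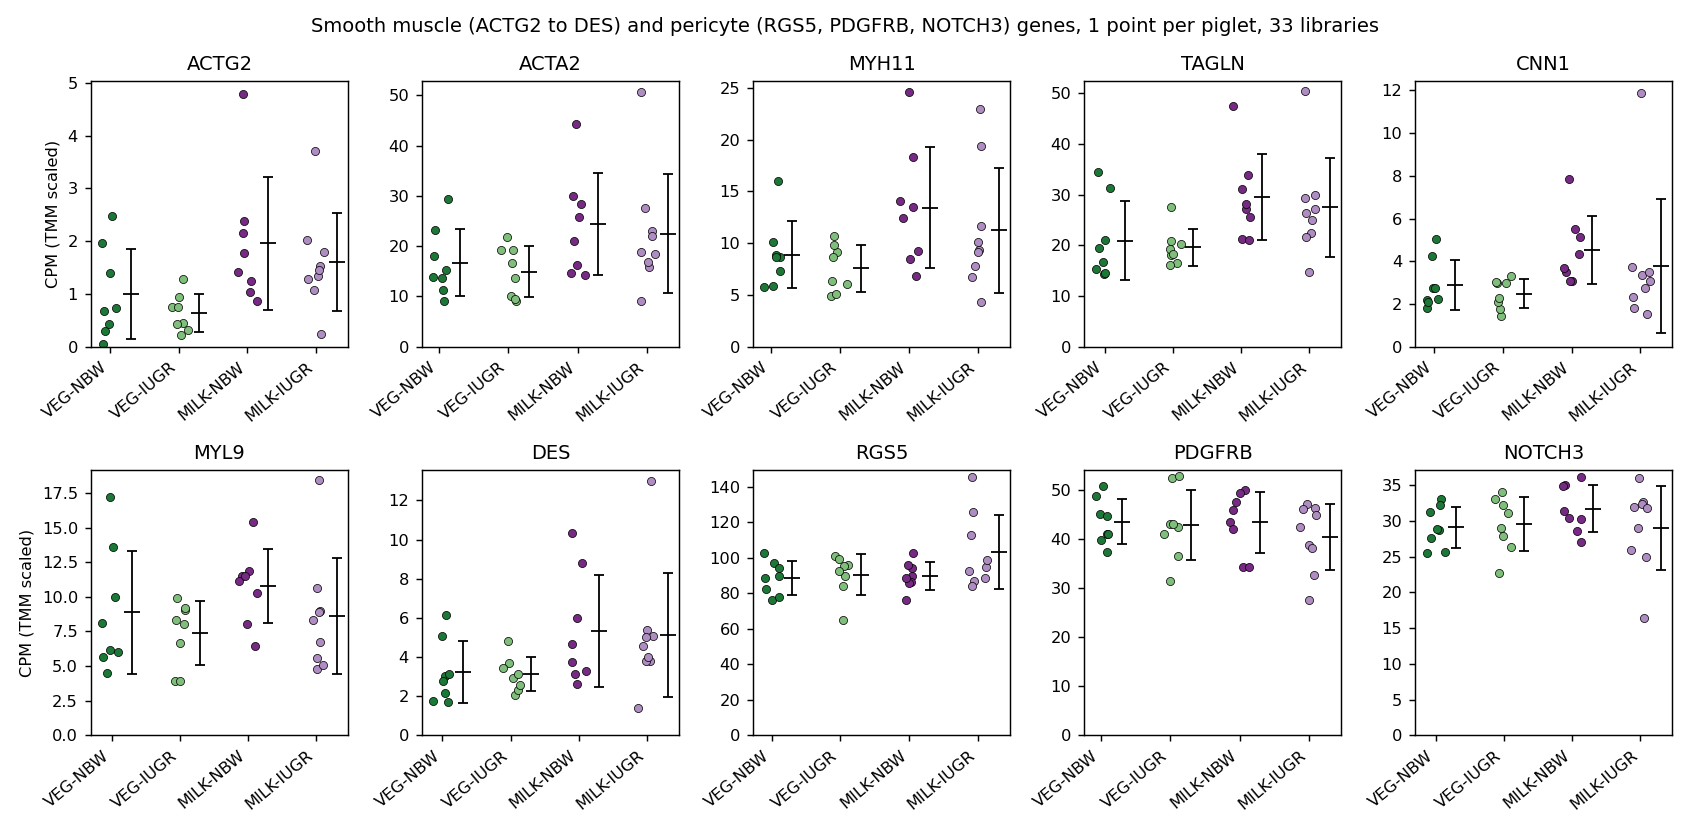
Level of each of the 10 genes (y axis, CPM after TMM scaling) in the 4 groups (x axis), with 1 point per piglet in 33 libraries and the group mean ± SD beside the points. In the smooth muscle genes from ACTG2 to DES the MILK points reach higher than the VEG points but overlap them, as for ACTG2 with up to 4.80 CPM in MILK and up to 2.47 CPM in VEG, whereas the medians of RGS5, PDGFRB and NOTCH3 are close between groups, with RGS5 up to 146 CPM and NOTCH3 down to 16.4 CPM in MILK-IUGR.

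ACTA2, the alpha actin that is the most widely used marker of vascular smooth muscle, lies on chromosome 14 (100868145 to 100886732). Its lowest, median and highest levels were 9.01, 14.5 and 29.4 CPM in VEG-NBW and 9.17, 15.2 and 21.9 CPM in VEG-IUGR. The same values were 14.2, 23.5 and 44.3 CPM in MILK-NBW and 9.0, 18.9 and 50.8 CPM in MILK-IUGR. The groups overlapped at the low end, and 3 MILK piglets exceeded every VEG piglet. The mean was 15.8 ± 5.80 CPM in VEG and 23.4 ± 10.8 CPM in MILK. The log2 difference was 0.57 (SE 0.18, 95% interval 0.21 to 0.94, 1.49-fold), with an adjusted p-value of 0.985 by edgeR (unadjusted p = 0.00268).

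MYH11, the heavy chain of smooth muscle myosin, ran from 4.85 to 16.0 CPM in VEG (median 8.65) and from 4.28 to 24.6 CPM in MILK (median 10.1). MILK piglets thus held both the lowest and the highest level. Its log2 difference was 0.59 (SE 0.18, interval 0.23 to 0.95). The name of MYH11 comes from the table that pairs identifiers with symbols. Genes with neighbouring identifier numbers, such as MYH9 and TXN2, lie on chromosome 5, whereas RefSeq places MYH11 on chromosome 3, so that the identity of this row is in doubt and no position is given.

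TAGLN encodes transgelin, an actin-binding protein of smooth muscle (chromosome 9, 44561756 to 44567385). It ranged from 14.3 to 34.5 CPM in VEG (median 18.8) and from 14.8 to 50.5 CPM in MILK (median 27.2), with 16 of 17 MILK piglets above the VEG median. Its log2 difference was 0.49 (SE 0.13, interval 0.22 to 0.76). Its SD was 29.2% of the mean in VEG and 31.6% in MILK, the lowest of the 7 smooth muscle genes in both diets.

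CNN1, calponin 1, which binds actin and slows its movement over myosin (chromosome 2, 70183370 to 70190756), ran from 1.45 to 5.06 CPM in VEG (median 2.51) and from 1.54 to 11.9 CPM in MILK (median 3.48). The log2 difference was 0.62 (SE 0.20, interval 0.21 to 1.03). DES encodes desmin, the intermediate filament of muscle (chromosome 15, 121428539 to 121435426). Its levels were 1.71 to 6.12 CPM in VEG (median 2.98) and 1.40 to 13 CPM in MILK (median 4.59), and its log2 difference was 0.70 (SE 0.22, interval 0.25 to 1.14). With all 36 libraries the DES difference was 0.54 (SE 0.28, unadjusted p = 0.0628).

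MYL9, the regulatory light chain of smooth muscle myosin (chromosome 17, 39788165 to 39795240), had the smallest difference of the 7, and a smaller one (0.14) without piglet 214 of MILK-IUGR. Its levels were 3.95 to 17.2 CPM in VEG (median 8.05) and 4.82 to 18.4 CPM in MILK (median 8.94). Its log2 difference was 0.25 (SE 0.18, interval -0.13 to 0.63, unadjusted p = 0.181). With all 36 libraries it turned to -0.12 (SE 0.31), and in that set piglet 210 of VEG-IUGR, with no counts for 8 of the genes, had 68.5 CPM of MYL9.

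Of the 6 smooth muscle genes other than ACTG2, 5 were higher in MILK at an unadjusted p-value under 0.05, beside 1.95% of all genes. Over all 36 libraries this held for 4 of the 6, beside 0.385% of all genes. ACTG2 is left out of both counts because its diet values chose it. These genes vary together from piglet to piglet, so that their p-values are not independent, and they were picked with the ACTG2 result known. The count is therefore a description. The median log2 difference was 0.59 over the 7 genes and 0.58 over the 6 other than ACTG2. All of them kept an adjusted p-value of 0.985 by edgeR.

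The differences of the 3 pericyte genes were close to 0. Pericyte is here the name of a gene list, and which cells made these RNAs was not measured. After group and sex means were removed, r with ACTA2 was 0.50 for PDGFRB (rank 172 of 15355 genes), 0.26 for NOTCH3 and 0.06 for RGS5. RGS5, a regulator of G protein signalling enriched in brain pericytes (chromosome 4, 87286953 to 87340816), had lowest, median and highest levels of 65.1, 91.1 and 103 CPM in VEG and 76.2, 92.5 and 146 CPM in MILK. The log2 difference was 0.11 (SE 0.07, interval -0.02 to 0.25). PDGFRB, the receptor through which endothelial cells recruit pericytes (chromosome 2, 151155753 to 151192818), had levels of 31.4, 42.7 and 52.8 CPM in VEG and 27.6, 43.4 and 49.96 CPM in MILK, and a log2 difference of -0.04 (SE 0.07, interval -0.19 to 0.11). NOTCH3, the Notch receptor of mural cells (chromosome 2, 62364507 to 62402348), had levels of 22.8, 29.0 and 34.0 CPM in VEG and 16.4, 31.3 and 36.2 CPM in MILK. Its log2 difference was 0.05 (SE 0.07, interval -0.10 to 0.20).

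For these 3 genes the diet groups overlapped, with 4 MILK piglets above every VEG piglet for RGS5, 4 for NOTCH3 and 0 for PDGFRB. By unadjusted p-value 0 of 3 were under 0.05, beside 4.26% of all genes in either direction, and so small a count says nothing of these genes. The intervals leave room for a difference of up to 0.25 on the log2 scale and contain none of the point values of ACTA2, MYH11, TAGLN, CNN1 or DES. The RGS5 interval nevertheless overlaps the intervals of ACTA2, MYH11, TAGLN and CNN1. That of MYL9 (-0.13 to 0.63) overlaps the intervals of all 3 pericyte genes. The PDGFRB difference changed sign, to 0.03 (SE 0.24), with all 36 libraries. The difference between the smooth muscle and the pericyte genes was not tested as such.

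**Figure D2:**
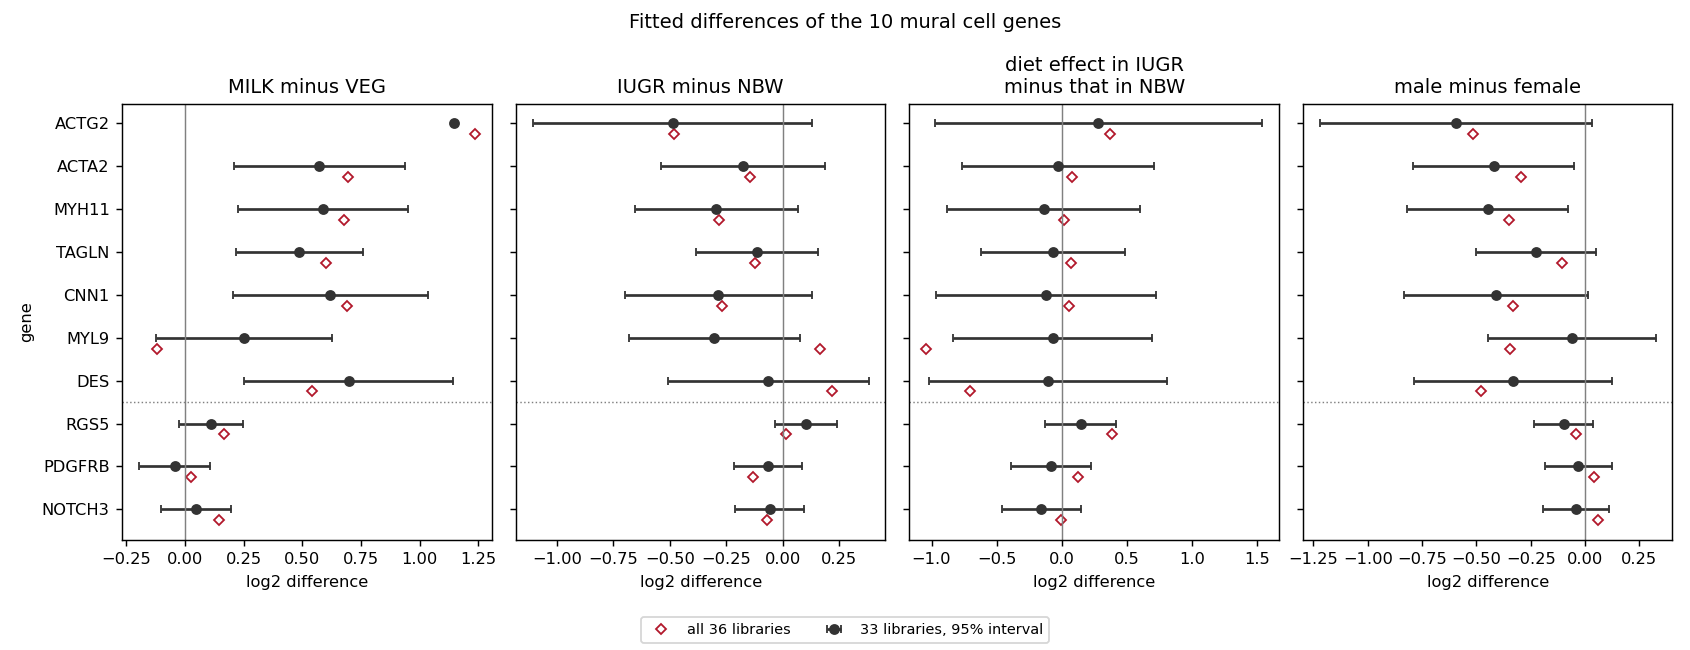
Fitted log2 differences (x axes) of the 10 genes (y axis) for diet, birth weight, the interaction and sex, with black points and 95% intervals from 33 libraries and red diamonds from all 36; ACTG2 has no interval for diet, which chose it. In the first panel ACTA2, MYH11, TAGLN, CNN1 and DES lie from 0.49 to 0.70 with intervals above 0, while MYL9 and the pericyte genes have intervals that include 0.

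Within each birth weight the smooth muscle genes had positive differences. In NBW piglets, the log2 difference of MILK and VEG was 0.59 for ACTA2 (SE 0.26), 0.66 for MYH11 (SE 0.26), 0.52 for TAGLN (SE 0.19), 0.68 for CNN1 (SE 0.29), 0.75 for DES (SE 0.32) and 0.29 for MYL9 (SE 0.27). In IUGR piglets the corresponding values were 0.56, 0.52, 0.45, 0.56, 0.65 and 0.22, with SEs of 0.19 to 0.31. ACTG2 stood at 1.01 in NBW and 1.29 in IUGR. At an unadjusted p-value under 0.05 this made 5 of the 6 genes other than ACTG2 in NBW, beside 2.09% of all genes, and 4 of the 6 in IUGR, beside 1.88%. No gene of the whole table passed the adjusted threshold in NBW (0%) or IUGR (0%).

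The diet effect was therefore set against birth weight with the interaction term, which the choice of ACTG2 did not use. The interaction was 0.28 for ACTG2 (SE 0.61, interval -0.98 to 1.54), -0.03 for ACTA2 (SE 0.36), -0.14 for MYH11 (SE 0.36), -0.07 for TAGLN (SE 0.27) and -0.11 for DES (SE 0.44). None of the 10 reached an unadjusted p-value of 0.05, beside 6.09% of all genes, and so small a count says nothing of these genes. Adjusted p-values by edgeR ran from 0.841 to 0.991. The intervals of the smooth muscle genes are wide enough to hold an interaction as large as the diet effect itself.

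Birth weight was also independent of the choice. The 7 smooth muscle genes had lower fitted levels in IUGR, by log2 differences from -0.06 for DES (SE 0.22) to -0.49 for ACTG2 (SE 0.30), and RGS5 had a higher one (0.10, SE 0.07). No mural cell gene was under 0.05 by unadjusted p-value, beside 2.19% of all genes. Leaving out piglet 214 of MILK-IUGR moved CNN1 from -0.29 to -0.48 (unadjusted p = 0.00653), MYL9 to -0.40 (unadjusted p = 0.0236) and MYH11 to -0.37 (unadjusted p = 0.0387). Without this piglet, 359 of 15325 genes were under 0.05 by unadjusted p-value for birth weight. In the 36 libraries, the values of MYL9 (0.16) and DES (0.22) were positive.

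Females had the higher fitted level in all 10 genes over 33 libraries, and over 36 in all but PDGFRB (0.04) and NOTCH3 (0.06). For ACTA2 the mean was 22.5 ± 11.4 CPM in 16 females and 17.1 ± 6.38 CPM in 17 males, and the log2 difference, male minus female, was -0.42 (SE 0.18, unadjusted p = 0.0262). MYH11 had a difference of -0.45 (SE 0.18, unadjusted p = 0.0186) and ACTG2 one of -0.59 (SE 0.31, unadjusted p = 0.0609). This made 2 of the 10 at an unadjusted p-value under 0.05, beside 1.28% of all genes that were lower in males. None passed the adjusted threshold (adjusted p = 0.9997 by edgeR), which 0.163% of all genes did for sex. Over all 36 libraries the ACTA2 difference was -0.29 (SE 0.30) and that of MYH11 was -0.35 (SE 0.27), neither at an unadjusted p-value under 0.05.

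ACTG2 was then compared with the other 9 genes from piglet to piglet, over 33 piglets in log2 CPM. With ACTA2 Pearson's r was 0.92 and Spearman's rho 0.93. Pearson's r was 0.87 with TAGLN, 0.85 with MYH11, 0.81 with DES, 0.80 with CNN1 and 0.69 with MYL9, and Spearman's rho was 0.90, 0.86, 0.85, 0.84 and 0.74 in this order. Each of these 6 had a permutation p of 1e-05, the smallest that 100000 permutations can give (adjusted over 9 relations, 1.5e-05). Piglets of both diets were permuted together, so that the diet values that chose ACTG2 enter the permutation p-values. These p-values, also those of the pericyte genes below, are therefore a description. Without the 2 piglets farthest from the median of the other gene, r was 0.65 to 0.91. Piglets with a high level of ACTG2 also tended to have a high level of the other smooth muscle genes, in both diets. Within VEG, r was 0.58 (DES) to 0.89 (ACTA2), and within MILK 0.63 (MYL9) to 0.95 (ACTA2). It was 0.78 (CNN1) to 0.94 (ACTA2) in females and 0.65 (MYL9) to 0.91 (ACTA2) in males. After group and sex means were removed, it was 0.72 (MYL9) to 0.89 (ACTA2).

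Correlations with the pericyte genes had lower values. Pearson's r was 0.31 with PDGFRB (permutation p = 0.0785, adjusted 0.101; Spearman's rho 0.35), 0.23 with NOTCH3 (permutation p = 0.198, adjusted 0.223; rho 0.28) and 0.14 with RGS5 (permutation p = 0.440, adjusted 0.440; rho 0.06). Without the 2 farthest piglets these r were 0.32, 0.33 and 0.05. The value for PDGFRB was 0.59 within VEG, 0.32 within MILK and 0.44 after group and sex means were removed. With all 36 libraries, r with ACTG2 was 0.50 for PDGFRB, 0.50 for NOTCH3, 0.47 for RGS5, 0.43 for DES and 0.17 for MYL9. For ACTA2, MYH11, TAGLN and CNN1 it was 0.70 (TAGLN) to 0.80 (CNN1). This set includes piglet 210 with no counts for 8 of the genes.

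**Figure D3:**
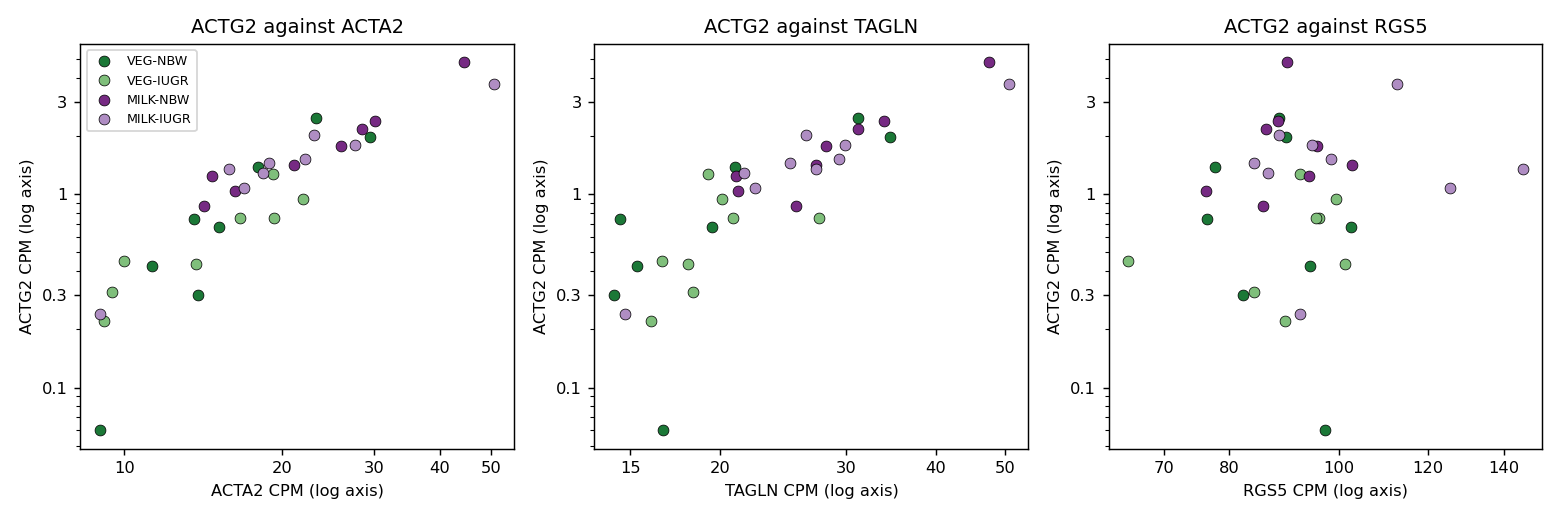
ACTG2 level (y axis, CPM, log axis) against that of ACTA2, TAGLN and RGS5 (x axes, CPM, log axes), with 1 point per piglet in 33 libraries, coloured by group. Points rise along a line for ACTA2 (r = 0.92) and TAGLN (r = 0.87) and form no line for RGS5 (r = 0.14).

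Among themselves, the 7 smooth muscle genes had r from 0.65 to 0.94 over 21 pairs (median 0.85), with ACTA2 and MYH11 at the top. The 3 pericyte genes did not form such a block. PDGFRB and NOTCH3 had r = 0.58, RGS5 and PDGFRB r = -0.04, and RGS5 and NOTCH3 r = -0.41. Pairs of a smooth muscle and a pericyte gene ran from 0.02 to 0.49 (median 0.24). All values come from the same 33 libraries, so that pairs share their depth and scaling.

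**Figure D4:**
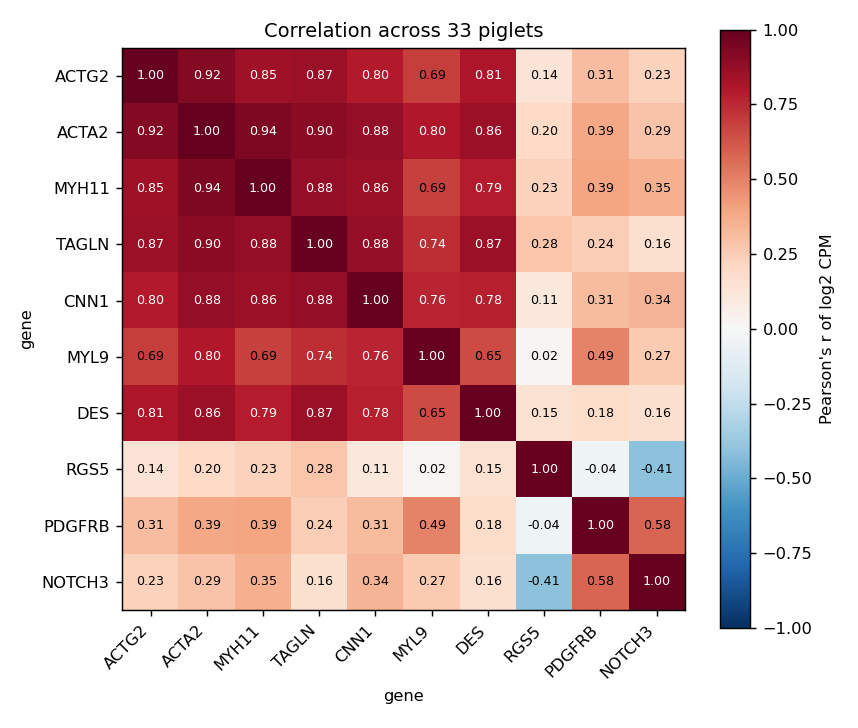
Pearson's r of log2 CPM over 33 piglets for each pair of the 10 genes (both axes), from blue (negative) to red (positive). The smooth muscle genes form a red square with r of at least 0.65, and RGS5, PDGFRB and NOTCH3 lie outside it.

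The spread between piglets also varied among the genes. The SD over the 33 piglets was 77.0% of the mean for ACTG2, 58.6% for CNN1, 58.5% for DES, 48.4% for MYH11, 47.7% for ACTA2, 40.5% for MYL9 and 35.2% for TAGLN. It was 15.4% for RGS5, 14.4% for PDGFRB and 13.9% for NOTCH3. ACTA2 had a median of 325 counts and TAGLN one of 411, and CNN1, DES and ACTG2 had fewer. The part of counting error in these spreads was not tested.

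The genes most like ACTG2 were searched among 15355 others by Pearson's r of log2 CPM after group and sex means were removed (33 libraries). The 8 most alike held all 6 other smooth muscle genes: ACTA2 (0.89), TAGLN (0.80), MYH11 (0.79), DES (0.74), CNN1 (0.73) and MYL9 (0.72). The other two were ITIH4 (0.84), an inter-alpha-trypsin inhibitor heavy chain by its name in the table, and the tetraspanin TSPAN11 (0.71). The same search from ACTA2 gave ITIH4 (0.92), the 6 other smooth muscle genes and the basement membrane collagen COL18A1 (0.72). ITIH4 had 2.17 ± 1.08 CPM in VEG (n = 16) and 3.48 ± 1.89 CPM in MILK (n = 17), a log2 difference of 0.69 (SE 0.22). TSPAN11 and COL18A1 had differences of 0.08 (SE 0.11) and 0.04 (SE 0.10).

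RGS5 had other neighbours. Its 8 most alike genes were MIER1 (0.69), RGS4 (0.69), MDM1 (0.68), RBM48 (0.68), SPARCL1 (0.66), FOXD2 (0.66), UTP15 (0.66) and ANKRD28 (0.66), with 0 of the mural cell genes among them. In the list for ACTG2, PDGFRB ranked 283, NOTCH3 3303 and RGS5 9158.

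The wider contractile machinery was described with a list of 19 further genes, all past the filter. KCNMB1, the beta subunit that tunes the large-conductance potassium channel of smooth muscle, had 0.374 ± 0.143 CPM in VEG and 0.706 ± 0.368 CPM in MILK, a log2 difference of 0.88 (SE 0.24). MYLK, the kinase that phosphorylates the myosin light chain, had 16.5 ± 3.81 and 20.0 ± 2.24 CPM and a difference of 0.27 (SE 0.09). These 2 of 19 were higher in MILK at an unadjusted p-value under 0.05, beside 1.95% of all genes, and 0 were lower. CSRP1 (0.02, SE 0.12) and TPM1 (0.06, SE 0.05), which are among those with the highest counts, had differences close to 0. Genes with lower counts, chosen after their values were seen, were SMTN (0.03, SE 0.06), SYNPO2 (0.09, SE 0.11), LMOD1 (0.13, SE 0.19) and PDLIM3 (-0.08, SE 0.08). None of these was under that p-value. The median over the list was 0.05. None passed the adjusted threshold.

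Regulators of the smooth muscle programme numbered 9 past the filter. The T-box factor TBX2 was higher in MILK at an unadjusted p-value under 0.05 (0.23, SE 0.11) and no other. This made 1 of 9, beside 1.95% of all genes. SRF, the factor that drives contractile genes, had a difference of 0.01 (SE 0.05), and its cofactors MRTFA and MRTFB had -0.08 (SE 0.08) and -0.03 (SE 0.07). MYOCD, named after its value was seen, had 0.15 (SE 0.21). For the interaction, FOXC1 (-0.50, SE 0.22), PRKG1 (0.39, SE 0.15) and MEF2C (0.25, SE 0.11) had unadjusted p-values under 0.05, beside 6.09% of all genes. Over all 36 libraries 1 of the 9 regulators did, with a positive value, beside 879 of 15330 genes.

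Of 14 further pericyte genes past the filter, 0 reached an unadjusted p-value of 0.05 for diet, beside 4.26% of all genes, with a median log2 difference of 0.05. MCAM, an adhesion molecule of mural and endothelial cells, had 0.07 (SE 0.06), NDUFA4L2 -0.10 (SE 0.07) and the connexin GJC1 -0.09 (SE 0.09). For the interaction, FOXF2 (-0.38, SE 0.16) and CD248 (-0.52, SE 0.24) had unadjusted p-values under 0.05, beside 6.09% of all genes. Over all 36 libraries 4 of the 14 did, with negative values, beside 879 of 15330 genes. HIGD1B and ATP13A5 had at most 3 counts in the median piglet and did not pass the filter.

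The ligands and receptors of mural cell recruitment, 21 past the filter, had a median difference of 0.06. The endothelial receptor ACVRL1 was higher in MILK at an unadjusted p-value under 0.05 (0.19, SE 0.09). This made 1 of the 21, beside 1.95% of all genes. PDGFB, the ligand of PDGFRB, had 0.08 (SE 0.07) for diet and 0.16 (SE 0.07) for birth weight, the latter at an unadjusted p-value under 0.05. EDNRB, S1PR1 and TGFBR1, those with the highest counts, had -0.02 (SE 0.07), 0.08 (SE 0.05) and -0.05 (SE 0.04). Of 6 NOTCH targets, HES4 had 0.17 (SE 0.08) for diet and -0.17 (SE 0.08) for birth weight, both at an unadjusted p-value under 0.05. In each comparison this made 1 of the 6, beside 1.95% of all genes (higher in MILK) and 2.19% (birth weight). HEY1, HEY2 and HES1 had 0.00, -0.10 and 0.02 for diet.

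The other 4 actins had diet differences near 0. ACTB and ACTG1, the actins of every cell, had values of 0.00 (SE 0.05) and -0.04 (SE 0.05), and the striated muscle actins ACTA1 and ACTC1 had 0.05 (SE 0.24) and 0.07 (SE 0.15). For the interaction, ACTB (-0.30, SE 0.10) and ACTG1 (-0.24, SE 0.10) had unadjusted p-values under 0.05, beside 6.09% of all genes. Over all 36 libraries 1 of the 4 did, with a negative value, beside 879 of 15330 genes. Actin genes are similar in sequence, and reads shared between them could have been split or dropped in the counting.

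**Figure D5:**
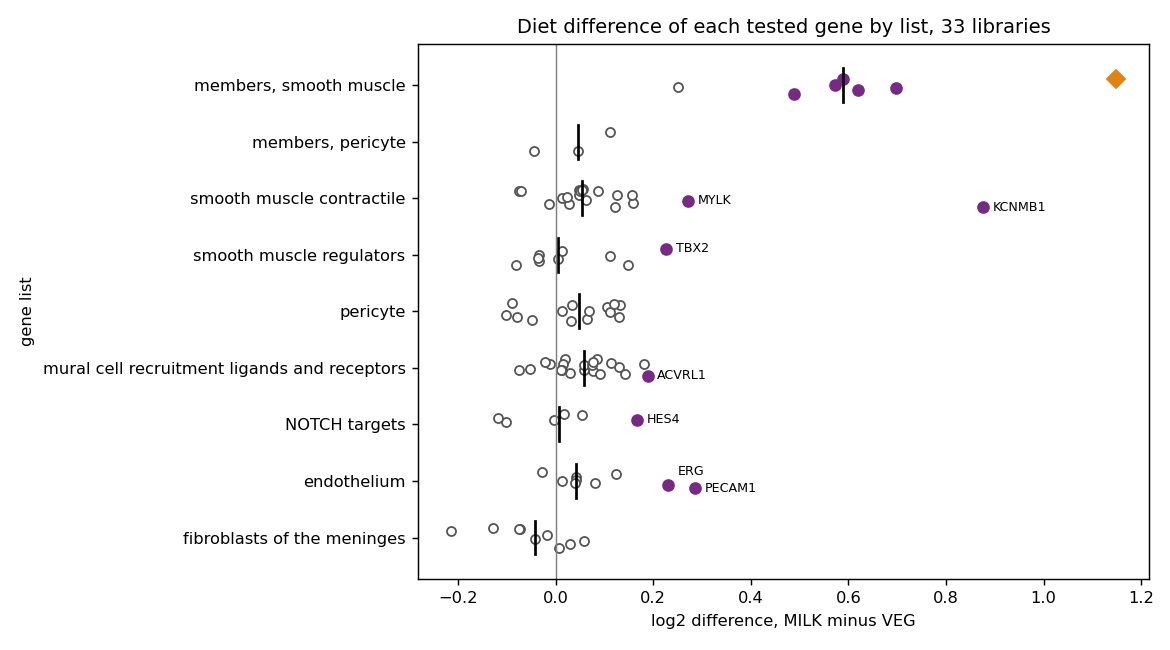
Fitted log2 difference of MILK and VEG (x axis) for each tested gene of 9 lists (y axis) in 33 libraries, with filled points at an unadjusted p-value under 0.05, an orange diamond for ACTG2, which was chosen on this contrast, and a bar at each list's median. The smooth muscle genes described here have a median of 0.59, and the medians of the other lists lie between -0.04 and 0.06.

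Markers of neighbouring cells were measured beside these results. The 9 endothelial markers detected summed to 270.0 to 383 CPM in VEG and 248 to 366 CPM in MILK, and the sum had r = 0.58 with ACTA2 over 33 piglets. PECAM1 (0.29, SE 0.09) and ERG (0.23, SE 0.09) were higher in MILK at an unadjusted p-value under 0.05, and CLDN5 (0.04, SE 0.07) and CDH5 (0.12, SE 0.10) were not. This made 2 of the 9, beside 1.95% of all genes. Over all 36 libraries, KCNMB1 (0.94, SE 0.26) and PECAM1 (0.28, SE 0.11) stayed under that p-value, beside 0.385% of all genes. MYLK (0.36, SE 0.23), TBX2 (0.31, SE 0.20), ACVRL1 (0.10, SE 0.15), HES4 (0.25, SE 0.22) and ERG (0.33, SE 0.23) did not. The 10 fibroblast markers of the meninges summed to 466 to 1191 CPM in VEG and 521 to 1319 CPM in MILK, with r = 0.51 with ACTA2. Of the 9 that passed the filter, 0 were under 0.05 by unadjusted p-value for diet, beside 4.26% of all genes, and their median difference was -0.04. DPT alone had at most 3 counts in the median piglet. The part of endothelial cells or meninges in the smooth muscle values was not tested.

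Markers of other tissues and depth were measured as well, and their part in the smooth muscle values was not tested. Over 33 libraries, the sum of 6 choroid plexus markers had r = 0.02 with ACTA2. That of 8 skeletal and heart muscle markers had r = -0.04, with MYL1, TNNT3 and TNNI2 at 3 counts or fewer in the median piglet. Over all 36 libraries, which include piglet 210 with 0 counts for ACTA2, these r were 0.36 and 0.35. Depth was 15516541 to 21715123 read pairs on genes in VEG and 15698493 to 23027502 in MILK, and ACTG2 had r = -0.16 with it.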

How the data were processed

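The authors sequenced RNA of the cerebellum, 1 library per piglet, and deposited raw counts of read pairs per Ensembl gene, without normalization, for 36 piglets. The submitters' processing notes name Trim Galore, HISAT2, HTSeq, DESeq2 and the build Sscrofa11.1. Versions, annotation release and strand setting are not given in the sources used here, so that reads of overlapping or antisense genes cannot be separated. A table of names paired 15029 of 31907 identifiers with a symbol. The 5 rows for reads without a unique gene were kept out of library sizes and tests, and reads without a gene had a median share of 28.3% in the 33 libraries.

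Groups and sex were taken from the labels. Litter, which the labels leave out, did not enter any model. The study excluded 3 libraries of low integrity, 1 each of VEG-NBW, VEG-IUGR and MILK-NBW, without giving piglet numbers. Piglets 202, 210 and 213 of these groups were taken for them because their share of reads without a gene exceeded Dixon's value (0.493 for 9 piglets) in their group. For the tests, edgeR 4.0.16 under R 4.3.3 was run on the counts (TMM scaling, a filterByExpr minimum of 10 counts, quasi-likelihood F test, 15356 genes) with sex as a covariate and Benjamini-Hochberg adjustment over all genes. Diet and birth weight were tested without their interaction, and the interaction, sex and the contrasts within groups in a model of 4 group means. Levels are CPM after TMM scaling, not divided by gene length, so that levels are not compared between genes. Correlations used log2 CPM (prior count 2) and 100000 permutations in SciPy 1.17.1. Alternatives were all 36 libraries, leaving out piglet 207 as well, DESeq2 1.42.0 and its size factors, no filter, no sex term, limma 3.58.1 voom with library weights, and each piglet left out in turn.

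Members and gene lists were chosen with earlier results of these data known. All 10 genes are named. From the wider lists, genes with an unadjusted p-value under 0.05 for diet, birth weight or the interaction and up to 3 with the highest mean count are named, and for likeness the 8 genes with the highest r. A gene that this rule selects is not reported here. Piglets carry unique numbers, and nothing pairs them across groups.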

Additional observations from a re-analysis of the deposited data

Results flagged for a closer look

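In 9 of 40 sets of values (10 genes in 4 groups of 8 or 9 piglets) 1 piglet lay farther from its nearest neighbour than Dixon's 95% value allows, and chance alone gives about 1 in 20 such sets. As the smooth muscle genes vary together, these sets are not independent. Piglet 214 of MILK-IUGR was the highest of its group in all 7 smooth muscle genes and stood apart by this measure in 5, with ACTA2 at 50.8 CPM (next 27.6), TAGLN at 50.5 CPM (next 29.9), CNN1 at 11.9 CPM (next 3.73), MYL9 at 18.4 CPM (next 10.6) and DES at 13 CPM (next 5.40). Piglet 208 of MILK-NBW had 4.80 CPM of ACTG2 (next 2.38). In the VEG groups, piglet 200 (VEG-NBW) had 16.0 CPM of MYH11 (next 10.1), piglet 211 (VEG-IUGR) had 27.5 CPM of TAGLN (next 20.9), and piglet 201 (VEG-IUGR) had the lowest RGS5 level, 65.1 CPM (next 84.2). Without piglet 214, the log2 differences for diet were 0.47 for ACTA2, 0.51 for MYH11, 0.42 for TAGLN, 0.42 for CNN1, 0.56 for DES and 0.14 for MYL9 (0.25 with it). Of these 6 genes, 5 were higher in MILK at an unadjusted p-value under 0.05, beside 1.9% of all genes. ACTG2 is left out of this count because its diet values chose it.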

How the results depend on the processing

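ACTG2 left out, the count of smooth muscle genes higher in MILK at an unadjusted p-value under 0.05 was 4 to 6 of 6 over the alternatives. There 0.385% to 3.33% of all genes were so. With any 1 piglet left out the count was 5. That of pericyte genes was 0 under the alternatives and 0 to 1 of 3 with 1 piglet left out. The 1 was RGS5 without MILK-NBW piglet 212, beside 304 of 15423 genes. In no alternative did any of the 10 genes pass the adjusted threshold. Counts of genes called over the whole table, at 0 in the comparisons of diet in NBW and birth weight in MILK, became 1 or 2: diet in NBW gave 1 without piglet 207, 2 by DESeq2 and 1 by limma, and birth weight in MILK gave 1 in each of 5 alternatives (without piglet 207, DESeq2 size factors, DESeq2, no sex term, limma). None were mural cell genes.

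Signs of some differences turned, and the cause was not tested. With all 36 libraries, log2 differences for diet became -0.12 for MYL9 and 0.026 for PDGFRB, for birth weight 0.16 for MYL9 and 0.22 for DES, and for the interaction 0.076 for ACTA2, 0.020 for MYH11, 0.067 for TAGLN, 0.055 for CNN1 and 0.12 for PDGFRB. In the same set, diet in NBW was -0.028 for RGS5, diet in IUGR was -0.64 for MYL9, 0.086 for PDGFRB and 0.14 for NOTCH3, and the sex difference was 0.039 for PDGFRB and 0.057 for NOTCH3. By limma with weights, birth weight was 0.0067 for DES, the interaction -0.38 for ACTG2, diet in NBW 0.011 for PDGFRB and diet in IUGR 0.032 for NOTCH3. Without piglet 207, the interaction was 0.031 for ACTA2 and 0.0013 for MYL9, diet in NBW 0.00033 for PDGFRB and diet in IUGR 0.046 for NOTCH3. Without the sex term, the interaction of ACTA2 was 0.049. The r of ACTG2 and RGS5 was -0.040 within VEG and -0.044 after group and sex means were removed.

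With 1 piglet left out, the interaction ran from -0.22 to 0.56 for ACTG2, -0.22 to 0.12 for ACTA2, -0.29 to 0.0097 for MYH11, -0.22 to 0.058 for TAGLN, -0.50 to 0.0078 for CNN1, -0.32 to 0.025 for MYL9 and -0.35 to 0.10 for DES, and birth weight from -0.20 to 0.032 for DES. Differences for diet kept their sign in all 10 genes. By unadjusted p-value for birth weight, MYH11 was also under 0.05 without piglet 211 or 212, and RGS5 (0.13) without piglet 201. Of all genes, 389 of 15417, 333 of 15423 and 384 of 15430 were under 0.05 without piglets 211, 212 and 201. No paired analysis was possible because piglet numbers are unique. ACTG2 rests on 1 to 84 counts per piglet. Littermates were treated as independent, because litter was in no model, and differences between litters stayed in the spread that the tests used.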

Other observations

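After group and sex means were removed, 5 of the 9 markers of meningeal fibroblasts tested had r over 0.5 with ACTA2 over 33 piglets, namely COL3A1 (0.70), COL1A2 (0.64), COL1A1 (0.62), DCN (0.58) and LUM (0.56), where 1.09% of all 15355 other genes did. The other 4 were COL15A1 (0.43), OGN (0.28), PI16 (0.03) and PDGFRA (-0.06). The diet differences of the first 5 were -0.02 (SE 0.15), -0.04 (SE 0.14), 0.01 (SE 0.15), -0.07 (SE 0.15) and -0.08 (SE 0.15) on the log2 scale. In the contractile list, 5 of 19 had r over 0.5, namely ACTN1 (0.62), VCL (0.57), KCNMB1 (0.57), FLNA (0.56) and PDLIM7 (0.55), whose diet differences were 0.12 (SE 0.09), 0.05 (SE 0.06), 0.88 (SE 0.24), 0.01 (SE 0.06) and -0.01 (SE 0.06). The libraries are shared by all these values, and the genes were chosen after their values were seen.

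Genes beside ACTG2 on chromosome 3, also chosen after their values were seen, had small diet differences. DGUOK, which ends 6000 bases before ACTG2 begins, had a log2 difference of -0.05 (SE 0.05), and STAMBP, 34470 bases beyond it, had 0.04 (SE 0.05).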
